A study of Mus musculus with 6 samples.

Results

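A set of 10 mouse carboxylesterase genes of the Ces1, Ces2 and Ces3 groups were followed in duodenal epithelium with and without the nuclear receptor ESRRA. The list held *Ces1d*, *Ces1e*, *Ces1f*, *Ces1g*, *Ces2a*, *Ces2b*, *Ces2c*, *Ces2e*, *Ces3a* and *Ces3b*, and all 10 were found among the 22611 genes of the expression table. *Ces3a* was selected on its higher expression in the knockout, so its values are given as a description, without a p-value, although it was part of the fit over all genes. The other members were listed by family, and 9 of the 10 had a mean above 1 FPKM, a count of fragments scaled to transcript length and library size, and were tested among 10596 genes. *Ces3b* stayed below this level.

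RNA-seq libraries were made from duodenal epithelium of 3 WT mice and 3 *Esrra*-/- mice (labelled ESRRAKO), with 1 library per mouse. The knockout was a germline deletion, which is not limited to the intestine, and the controls were littermates. Both groups had been fed a high-fat diet, and the methods state that both sexes were used in experiments with this line. The ages of the mice, and whether they carried the intestinal Cre transgene of the breeding scheme, are not given in the sources used here. The epithelium was released from the mesenchyme with EDTA and was not sorted, so fewer cells of a type and less RNA per cell cannot be told apart in these values.

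Carboxylesterases are serine hydrolases of the endoplasmic reticulum that split ester bonds in dietary and stored lipids, drugs and other foreign compounds. A serine, a glutamate and a histidine form the catalytic triad, and the serine sits in a short glycine-rich turn known as the nucleophile elbow. Members of the Ces2 group are the main carboxylesterases of the small intestine, where they act on acylglycerols and on ester prodrugs, whereas several Ces1 and Ces3 enzymes are best known from liver and adipose tissue.

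The sequence around the catalytic serine is shown for 6 members because it separates the 3 groups and shows how alike *Ces3a* and *Ces3b* are, which bears on how reads can be assigned to them. All sites lie on chromosome 8 of mm9 (NCBIM37) in exon 5 of the GENCODE M1 transcript. The site runs from chr8:107575468-107575518 on the plus strand in *Ces3a* and from chr8:107610558-107610608 on the plus strand in *Ces3b*. Those of *Ces2a*, *Ces2c* and *Ces2e* are at chr8:107261292-107261342, chr8:107374650-107374700 and chr8:107453697-107453747 on the plus strand, and that of *Ces1f* is at chr8:95793876-95793926 on the minus strand. Each run of 51 bases is written 5′ to 3′ in the direction of the gene, and the capitals mark the 5 codons for glycine, a variable residue, the serine, alanine and glycine.
Ces3a: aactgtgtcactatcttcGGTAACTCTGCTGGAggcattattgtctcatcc
Ces3b: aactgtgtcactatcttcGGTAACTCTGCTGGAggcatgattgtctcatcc
Ces2a: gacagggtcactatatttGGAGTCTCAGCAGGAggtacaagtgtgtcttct
Ces2c: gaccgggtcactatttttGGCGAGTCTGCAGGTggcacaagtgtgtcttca
Ces2e: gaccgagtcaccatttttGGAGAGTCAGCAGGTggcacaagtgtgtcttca
Ces1f: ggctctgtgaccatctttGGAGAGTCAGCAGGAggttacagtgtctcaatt

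The variable residue before the serine was glutamate in 7 members, valine in *Ces2a* and asparagine in *Ces3a* and *Ces3b*. Over these 51 bases *Ces3b* differed from *Ces3a* at 1 position, the Ces2 members at 15 to 18 and the Ces1 members at 19 or 20. The annotated *Ces3a* and *Ces3b* proteins both have 571 residues, with the catalytic serine at residue 232. Of the 10 proteins, 8 end in histidine, any residue, glutamate and leucine, a tail that holds proteins in the endoplasmic reticulum, and the *Ces3a* and *Ces3b* proteins do not end in this pattern.

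Over the whole coding sequence, 95.3% of aligned bases were identical between *Ces3a* and *Ces3b*. Identity was 74.6% to 81.6% among the Ces1 members and 83.0% to 92.1% among the Ces2 members, with the highest value between *Ces2b* and *Ces2c*. *Ces3a* shared 62.9% to 65.9% of bases with the members of the other groups. The matrix of coding identities shows these 3 blocks.

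**Figure D1:**
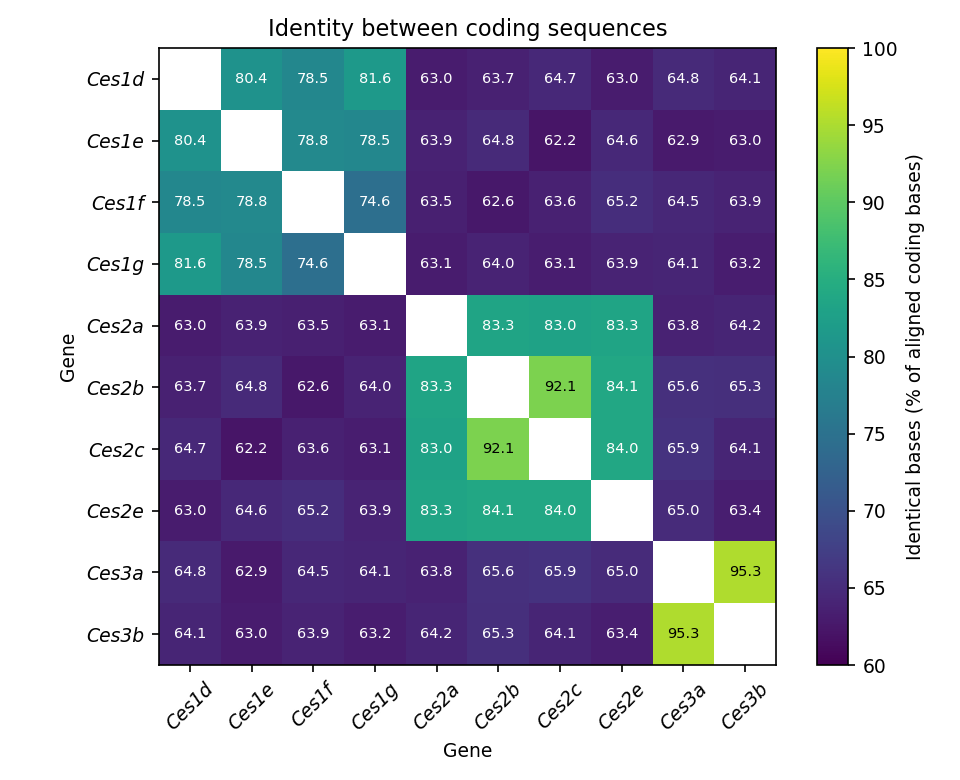
Percentage of identical bases between the coding sequences of each pair of members, over aligned bases without gaps. The Ces1, Ces2 and Ces3 members form blocks of higher identity, and the pair *Ces3a* and *Ces3b* has the highest value, 95.3%.

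The reads were quantified by matching short words to transcripts, so the share of each member's sequence that occurs in no other gene limits how well its value is separated. Of the 31-base words in the annotated *Ces3a* transcripts, 58.1% occurred in no other gene and 41.9% were shared with *Ces3b*. *Ces2c* had 24.9% unique words and shared 72.3% of its words with *Ces2d-ps*, so the division of reads within this pair is uncertain. *Ces2d-ps* had 20.6% unique words. On average the pair summed to 480 FPKM in WT and 657 FPKM in *Esrra*-/-, and *Ces2c* alone was listed at 479 and 655 FPKM. *Ces2b* had 80.1% unique words, and each of the other Ces1 and Ces2 members had 90.5% to 95.3%.

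*Esrra*, the targeted gene, was at 49.4, 73.5 and 104 FPKM in WT and at 10.4, 9.42 and 8.72 FPKM in *Esrra*-/-. Transcript assigned to the gene was thus reduced in *Esrra*-/- but still listed, and the values per gene do not show which part of it is left. Every *Esrra*-/- library lay below every WT library (log2 fold change −2.92, standard error 0.26, limma adjusted p = 0.0215). A two-sided exact permutation test over the 6 libraries gave p = 0.1, the smallest value that 3 against 3 allow. The libraries also differed in the sum of FPKM over all genes, from 738816 to 999902 in WT and from 707094 to 901171 in *Esrra*-/-, with the highest sum of each genotype in replicate 3. These 2 libraries also held almost no Y-linked transcripts, with summed values of 0.0487 and 0.222 FPKM over 4 genes against 27.3 to 46.7 FPKM in the other 4. Sums of FPKM do not give the number of fragments sequenced.

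*Ces3a*, whose enzyme is known mainly from liver, was at 1.09, 1.30 and 2.12 FPKM in WT and at 11.9, 8.33 and 17.9 FPKM in *Esrra*-/-. The lowest *Esrra*-/- library thus stood well above the highest WT library. The means were 1.50 ± 0.544 and 12.7 ± 4.82 FPKM (SD, n = 3 mice each), or 8.45 times the WT mean. On the scale of log2(FPKM + 0.1), the difference was 2.98 with a standard error of 0.33. It ranked 12 of 10596 genes by this difference, and since it was picked on this contrast the rank carries no test.

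The neighbours of *Ces3a* in this ranking were less even between mice. *Hba-a2*, a globin gene, and *Gm10260* stood just above it at 3.31 and 3.21, and *H2-DMb2*, a gene of antigen presentation, and *Gm10709* just below at 2.88 and 2.72. *Hba-a2* was listed at 0 in 1 WT library and *Gm10709* at 0 in 2 WT libraries and 1 *Esrra*-/- library, and *H2-DMb2* had 15.0 FPKM in 1 WT library. *Gm10709* had means of 0.119 FPKM in WT and 9.95 FPKM in *Esrra*-/-, with 29.5 FPKM in 1 library. It thus passed the filter only through the group where it was higher. *Ces3a* was above 1 FPKM in all 6 libraries.

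Within each genotype *Ces3a* was highest in the library with almost no Y-linked transcripts, replicate 3, and WT replicate 3 still lay below all 3 *Esrra*-/- libraries. The ratio of *Esrra*-/- to WT was 8.43 between these libraries and 8.46 between the means of the other 4.

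*Ces3b*, the neighbouring near-copy, was listed at 0 in WT replicate 1 and had 0.0910 and 0.315 FPKM in the other WT libraries. The *Esrra*-/- libraries had 0.241, 0.131 and 0.430 FPKM, and the genotypes overlapped. *Ces3a* made up 87.0% to 100% of the FPKM of the pair in WT and 97.6% to 98.5% in *Esrra*-/-. Summed over the pair, the values were 1.09, 1.40 and 2.43 FPKM in WT and 12.1, 8.46 and 18.3 FPKM in *Esrra*-/-. Since *Ces3a*, selected on this contrast, made up most of the pair, the sum largely restates its values and is no further support.

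Among the 9 members tested, 2 were called higher in *Esrra*-/-, *Ces2b* and *Ces3a*, and 0 were called lower, where a call needed an unadjusted limma p below 0.05 and a log2 difference larger than 0.58 in size. Over all genes tested, 1.35% were called higher and 3.28% lower. One of these 2 calls, that of *Ces3a*, follows from how it was selected. Without *Ces3a*, 1 of 8 members was called higher, and the median log2 fold change was 0.12, against 0.03 over all genes tested. Of these 8 members, 2 (*Ces1e* and *Ces2b*) had an unadjusted p under 0.05, against 10.8% of all genes tested. By limma adjusted p under 0.05, 0 of the 8 passed, and 0.0378% of all genes did.

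**Figure D2:**
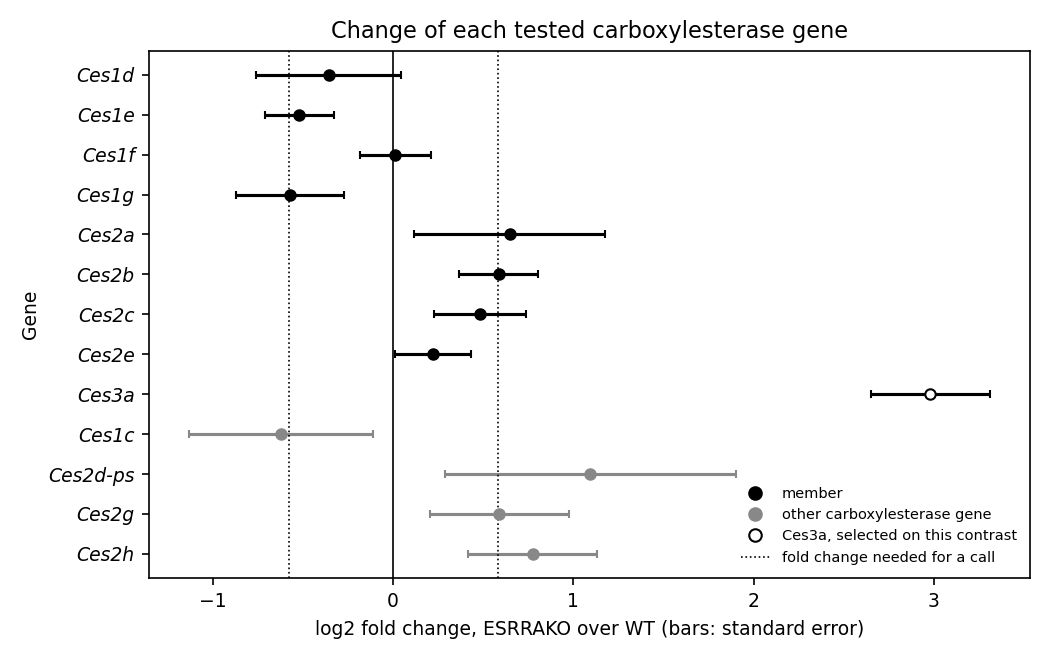
Log2 fold change of *Esrra*-/- (ESRRAKO) over WT with its standard error from limma, for the 9 tested members in black and 4 other carboxylesterase genes in grey; dotted lines mark 0.58 in either direction. The 4 Ces2 members lie at 0.22 to 0.65, 3 of the 4 Ces1 members lie below 0, and *Ces3a* (open point), selected on this contrast, stands at 2.98. Of the grey genes, *Ces2h* passed the filter only through *Esrra*-/-, so its point is a description without a test.

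The Ces2 group held the most abundant members. *Ces2e*, a hydrolase of intestinal acylglycerols and ester drugs, had 661, 692 and 898 FPKM in WT and 809.8, 803 and 999 FPKM in *Esrra*-/-. The difference of 0.22 on the log2 scale was about the size of its standard error of 0.21 (limma adjusted p = 0.736). It was 0.14 without WT replicate 1, 0.12 without *Esrra*-/- replicate 3, 0.36 without WT replicate 3 and 0.33 under quantile normalization. *Ces2c*, a triacylglycerol hydrolase of the small intestine, had 370.0, 425 and 641 FPKM in WT and 545, 673 and 747 FPKM in *Esrra*-/- (log2 fold change 0.48, standard error 0.25, limma adjusted p = 0.537). *Ces2c* was called without WT replicate 3 (0.71) and under quantile normalization (0.60), whereas its log2 fold change was 0.32 without WT replicate 1 and 0.38 without *Esrra*-/- replicate 3. For both genes WT replicate 3 lay above at least 1 *Esrra*-/- library, so the genotypes overlapped.

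*Ces2a*, an acylglycerol hydrolase also known from liver, was the most uneven member of the group. Its values were 29.8, 73.0 and 87.0 FPKM in WT and 63.0, 63.2 and 182 FPKM in *Esrra*-/-, and the log2 fold change of 0.65 had a standard error of 0.53 (limma adjusted p = 0.690). The log2 fold change was 0.14 without *Esrra*-/- replicate 3 and 0.17 without WT replicate 1. The lowest WT library and the highest *Esrra*-/- library carried the difference, and the other 4 libraries lay between 63.0 and 87.0 FPKM.

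*Ces2b*, the closest relative of *Ces2c* in the list, was low, with 2.95, 3.41 and 4.52 FPKM in WT and 4.33, 6.71 and 5.45 FPKM in *Esrra*-/-. Its log2 fold change of 0.59 (standard error 0.22) just passed the thresholds for a call, and its limma adjusted p was 0.414. WT replicate 3 lay above *Esrra*-/- replicate 1, so the genotypes overlapped here too. The call was lost without WT replicate 1 (0.45), WT replicate 2 (0.56), *Esrra*-/- replicate 2 (0.435) or *Esrra*-/- replicate 3 (0.58), and with a pseudocount of 1 (0.49).

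All 4 Ces2 members had a positive log2 fold change, as had 5754 of the 10596 genes tested. Their median was 0.53, and 1 of the 4 was called higher, against 1.35% of all genes. The villus enterocyte markers, a list of 10 genes of mature absorptive cells, had positive values in 10 of 10 cases, with a median of 0.27. Of these markers, 0 were called by limma and 0 had an unadjusted p under 0.05, against 10.8% of all genes. Their summed level was 34575 to 54173 FPKM in WT and 42393 to 55217 FPKM in *Esrra*-/-. The part of cell composition in the Ces2 values was not tested.

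*Ces2c* and *Ces2e* were highest, within each genotype, in replicate 3, the library with the largest sum of FPKM. *Ces2b* was highest in *Esrra*-/- replicate 2, the library with the smallest sum. When each library was divided by its own sum, an alternative added after the values had been seen, and set to a sum of 1000000, the *Ces2c* values became 501, 519 and 641 in WT and 731, 952 and 829 in *Esrra*-/-. Those of *Ces2e* became 895, 845 and 898 in WT and 1086, 1136 and 1109 in *Esrra*-/-. On this scale the genotypes no longer overlapped for either gene, nor for *Ces2b*, which had 3.99 to 4.52 in WT and 5.81 to 9.48 in *Esrra*-/-.

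**Figure D3:**
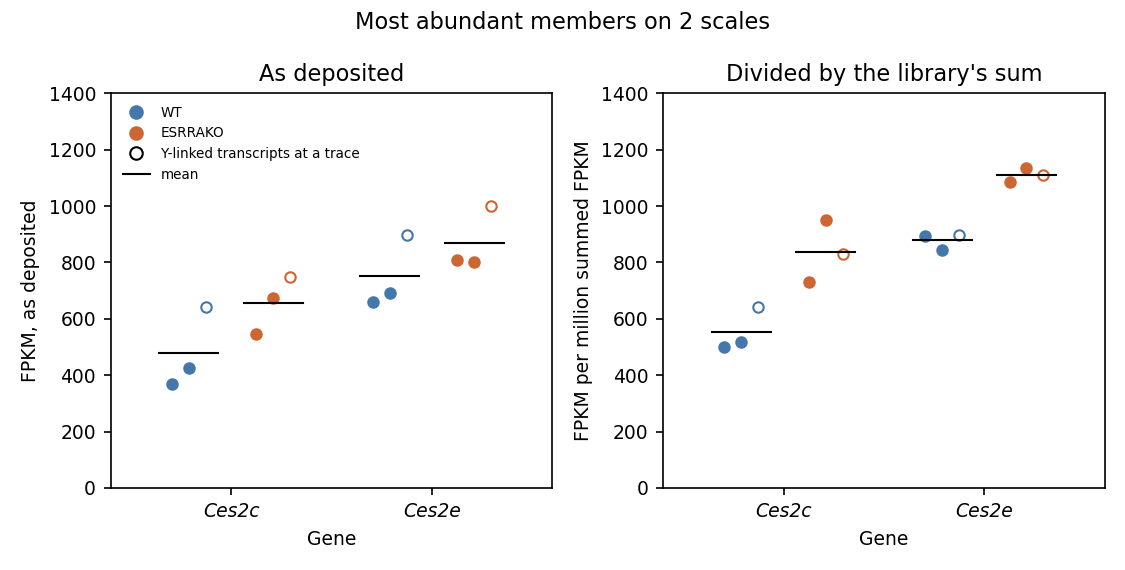
FPKM of *Ces2c* and *Ces2e* in each library as deposited (left) and divided by the library's summed FPKM and set to a sum of 1000000 (right), with a line at the mean of 3 mice; open points are the libraries with Y-linked transcripts at a trace. The genotypes overlap on the left and do not on the right, where *Ces2e* has 845 to 898 in WT and 1086 to 1136 in *Esrra*-/-.

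This scaling acted on all genes. The median log2 fold change over all genes went from 0.03 to 0.14, a shift of 0.114, and the calls went from 143 higher and 348 lower to 270 higher and 134 lower (2.55% and 1.26% of genes tested). Groups that did not overlap, with *Esrra*-/- above, went from 8.45% to 13.8% of genes. The log2 fold change of *Ces2c* was then 0.60 (standard error 0.16, limma adjusted p = 0.314) and that of *Ces2e* 0.34 (standard error 0.12, limma adjusted p = 0.441). Over all alternatives the limma adjusted p ran from 0.133 to 0.829 for *Ces2c* and from 0.244 to 0.926 for *Ces2e*. *Ces2c* was called on this scale, and *Ces2e* stayed below the fold change needed. Both log2 fold changes moved by about the shift of the median, and their standard errors went from 0.25 to 0.16 and from 0.21 to 0.12.

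Of the 4 Ces1 members, 3 had a negative log2 fold change, the median was −0.44, and by limma 0 were called and 1 (*Ces1e*) had an unadjusted p under 0.05, against 10.8% of all genes tested. *Ces1e*, known as egasyn for holding beta-glucuronidase in the endoplasmic reticulum, had 9.37, 9.37 and 12.8 FPKM in WT and 5.79, 8.09 and 8.07 FPKM in *Esrra*-/-. Every *Esrra*-/- value was below every WT value, as for 9.14% of all genes tested. The difference was −0.52 on the log2 scale with a standard error of 0.19 (limma adjusted p = 0.405), smaller in size than the 0.58 needed for a call. With 1 library left out in turn the call was made 4 times of 6, the exceptions being the fits without WT replicate 3 and without *Esrra*-/- replicate 1. Under the scaling by summed FPKM the lowest WT value of 11.5 and the highest *Esrra*-/- value of 11.4 nearly met, at a log2 fold change of −0.41; 3.29% of genes were apart in this direction on that scale.

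*Ces1f*, a hydrolase that releases fatty acids from stored triacylglycerol, was the abundant Ces1 member, with 95.0, 96.0 and 112 FPKM in WT and 80.6, 128 and 102 FPKM in *Esrra*-/-. The *Esrra*-/- libraries spanned the WT range, and the log2 difference was 0.01 with a standard error of 0.20 (limma adjusted p = 0.988) and a sign that changed between alternatives. *Ces1g*, which limits triacylglycerol output in the liver, had 2.10, 2.46 and 3.98 FPKM in WT and 2.02, 2.21 and 1.33 FPKM in *Esrra*-/- (log2 fold change −0.57, standard error 0.30, limma adjusted p = 0.536). *Ces1d*, the triacylglycerol hydrolase that supplies lipid to very low density lipoprotein in the liver, had 1.24, 1.49 and 1.66 FPKM in WT and 0.957, 2.07 and 0.684 FPKM in *Esrra*-/- (log2 fold change −0.36, standard error 0.40, limma adjusted p = 0.773).

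With 1 library left out, the log2 fold change ran from −0.76 to −0.31 for *Ces1g*, the last without WT replicate 3, and for *Ces1d* it was −0.77 without *Esrra*-/- replicate 2 but −0.04 when replicate 3 was left out instead. For *Ces1g* and *Ces1d* most of the difference came from the libraries with almost no Y-linked transcripts. The ratio of *Esrra*-/- to WT was 0.333 for *Ces1g* and 0.411 for *Ces1d* between these 2 libraries, and 0.928 and 1.11 between the means of the other 4. With 1 library of this kind per genotype, this contrast has no replicate and was not tested. *Ces2a* differed in the other direction, with ratios of 2.10 without and 1.23 with Y-linked transcripts.

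**Figure D4:**
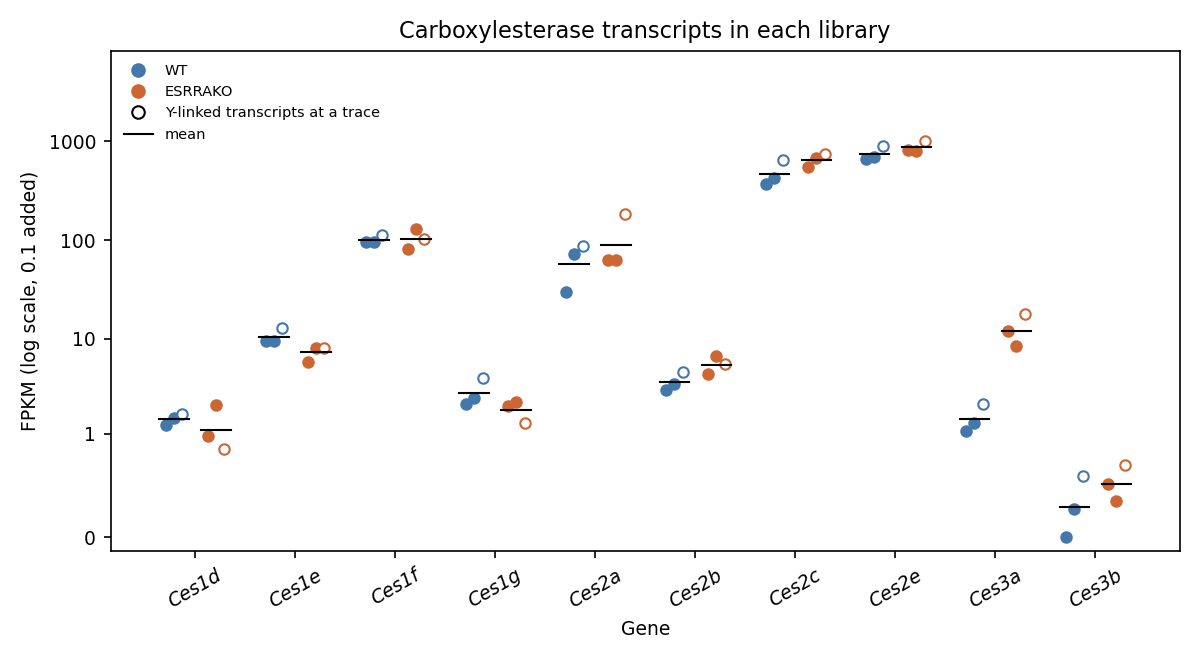
FPKM of the 10 members in each of the 3 WT and 3 *Esrra*-/- (ESRRAKO) libraries, on a log axis with 0.1 added, with a line at the mean of the log values; open points are the libraries with Y-linked transcripts at a trace. *Ces2e* and *Ces2c* lie above 300 FPKM in every library, *Ces3a* goes from 1.09 to 2.12 in WT to 8.33 to 17.9 in *Esrra*-/-, and *Ces3b* stays below 1.

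In WT the order of mean FPKM, a measure per length, was *Ces2e*, *Ces2c*, *Ces1f*, *Ces2a*, *Ces1e*, *Ces2b*, *Ces1g*, *Ces3a*, *Ces1d* and *Ces3b*. Neighbours from *Ces2b* to *Ces1d* in this order overlapped over the 3 mice, and the others did not. In *Esrra*-/- the order was *Ces2e*, *Ces2c*, *Ces1f*, *Ces2a*, *Ces3a*, *Ces1e*, *Ces2b*, *Ces1g*, *Ces1d* and *Ces3b*, and *Ces1f* and *Ces2a*, *Ces1e* and *Ces2b*, and *Ces1g* and *Ces1d* overlapped. *Ces3a* thus stood 8th in WT and 5th in *Esrra*-/-, where its lowest value of 8.33 FPKM was above the highest *Ces1e* value of 8.09 FPKM.

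The members summed to 1173, 1304 and 1763 FPKM in WT and 1524, 1695 and 2064 FPKM in *Esrra*-/-. *Ces2c* and *Ces2e* made up 84.6% to 88.9% of this sum in every library. *Ces3a* made up 0.0926% to 0.120% of it in WT and 0.491% to 0.866% in *Esrra*-/-, so it stayed below 1% of the family's summed level.

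The table held 10 further carboxylesterase genes, of which 4 passed the filter on the mean over all 6 libraries. *Ces2h* passed it only through *Esrra*-/-. By limma 0 of the other 3 were called, against 1.35% of all genes called higher and 3.28% lower. Of these 3, 0 had an unadjusted p under 0.05, against 10.8% of all genes. *Ces2g*, the most abundant of them, had 39.0, 31.1 and 59.8 FPKM in WT and 54.9, 41.3 and 109 FPKM in *Esrra*-/- (log2 fold change 0.59, standard error 0.39, limma adjusted p = 0.611). With the replicate number as a block *Ces2g* was called at the same fold change, and without *Esrra*-/- replicate 3 the log2 fold change was 0.19. *Ces2h* had 1.09, 0.515 and 0.827 FPKM in WT and 1.72, 1.45 and 1.10 FPKM in *Esrra*-/-. Its means were 0.810 and 1.42 FPKM, on either side of the filter, so these values are given as a description without a test. Of the words of *Ces2d-ps*, 20.6% were unique, so its value is poorly separated from that of *Ces2c*. *Ces2d-ps* and *Ces1c* had log2 fold changes of 1.10 and −0.62, with standard errors of 0.81 and 0.51. With 1 library left out these ran from 0.34 (without WT replicate 2) to 1.96 (without WT replicate 3) for *Ces2d-ps*, and for *Ces1c* the ends were −1.04 and −0.15, when *Esrra*-/- replicates 2 and 3 were omitted in turn. *Ces1a*, *Ces1b*, *Ces1h*, *Ces2f* and *Ces5a* had a mean of 1 FPKM or less, and *Ces4a* was listed at 0 in all 6 libraries.

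The carboxylesterase genes lie in 2 clusters on chromosome 8 of mm9. The Ces1 genes and *Ces5a* lie between 95544113 and 96059607, and the Ces2 and Ces3 genes and *Ces4a* between 107257903 and 107674009. *Ces3a* (107572499 to 107582314) and *Ces3b* (107607653 to 107617829) lie on the plus strand between *Ces2h* and *Ces4a*. The 6 nearest tested genes of other families around the Ces2 and Ces3 cluster were compared. Of these, *Nae1*, *Pdp2*, *Fam96b*, *Cbfb*, *D230025D16Rik* and *Tradd*, 0 were called and 0 had an unadjusted limma p under 0.05, with log2 fold changes from −0.28 to 0.29. Over all genes tested, 1.35% were called higher, 3.28% were called lower and 10.8% had an unadjusted limma p under 0.05. The genotypes did not overlap for *Cbfb*, which was lower in each *Esrra*-/- library than in any WT library, as for 9.14% of all genes. Near the Ces1 cluster *Nudt21*, which encodes a subunit of the complex that cleaves pre-mRNA 3′ ends, had 21.0, 24.3 and 23.6 FPKM in WT and 17.2, 19.5 and 17.3 FPKM in *Esrra*-/-. It was lower in each *Esrra*-/- library than in any WT library, with an unadjusted limma p under 0.05, but was not called (log2 fold change −0.35, standard error 0.12, limma adjusted p = 0.393). No tested gene of another family lay within either cluster.

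RefSeq promoters on GRCm38.p6, windows of 300 bases around the start of transcription, were matched by symbol for 6 members, *Ces1e*, *Ces1g*, *Ces2a*, *Ces2c*, *Ces2e* and *Ces3b*. *Ces1d*, *Ces1f*, *Ces2b* and *Ces3a* had no entry. The half-site AAGGTCA and the longer ESRR motif TCAAGGTCA, which contains it, were searched on both strands. Of the 6 promoters, 0 held either motif, where 4.72% of 32851 promoters held AAGGTCA and 0.423% held TCAAGGTCA.

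The genes whose log2 values followed *Ces3a* most closely over the 6 libraries were *D19Wsu162e* and *Erp29* (Pearson r of 0.993 each), *Glb1* (0.990), *Ddah1* (0.989) and *4933426M11Rik* (0.988). These values were chosen as the highest among all other tested genes and describe 6 libraries that include the difference between genotypes. *Erp29*, which encodes a chaperone of the endoplasmic reticulum, had 30.9 to 33.6 FPKM in WT and 45.7 to 53.4 FPKM in *Esrra*-/-. *Ddah1*, which encodes an enzyme that degrades methylated arginines, had 2.59 to 3.05 FPKM in WT and 6.24 to 9.51 FPKM in *Esrra*-/-. Among the members, the correlation with *Ces3a* was 0.778 for *Ces2c*, 0.770 for *Ces2b*, 0.729 for *Ces2e*, 0.611 for *Ces2a* and 0.006 for *Ces1f*, and it was −0.493, −0.605 and −0.661 for *Ces1d*, *Ces1g* and *Ces1e*.

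Other enzymes that hydrolyse ester lipids were taken as a list of 34 genes, of which 24 were tested. By limma 0 were called higher and 1 was called lower, and 3 had an unadjusted p under 0.05, the others being *Pnpla6* and *Abhd5*, both positive. Over all genes tested 10.8% had an unadjusted p under 0.05. The median log2 fold change was 0.17, with 18 positive and 6 negative values. *Clps*, which encodes the cofactor of pancreatic lipase, had 175, 304 and 170.0 FPKM in WT and 103, 155 and 43.3 FPKM in *Esrra*-/- (log2 fold change −1.24, standard error 0.47, limma adjusted p = 0.415). The call was lost without WT replicate 2 (−0.97) or *Esrra*-/- replicate 3 (−0.72), under quantile normalization (−1.22) and under scaling by summed FPKM (−1.12). *Pnlip*, the pancreatic lipase gene itself, was listed at 0 in all 6 libraries. Of 5 markers of Paneth cells, the secretory cells of the crypt base, 3 were called lower as well (*Lyz1*, *Defa24* and *Ang4*), against 3.28% of all genes. The 5 summed to 7449 to 15932 FPKM in WT and 1554 to 6844 FPKM in *Esrra*-/-. Their part in the *Clps* value was not tested.

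Transcription factors and cofactors known to act on esterase and drug metabolism genes were taken as a list of 20 genes, all tested. Apart from *Esrra*, which was called lower, by limma 0 were called and 1 (*Nr1h3*) had an unadjusted p under 0.05, against 10.8% of all genes. The receptors for foreign compounds *Nr1i2* and *Nr1i3*, which encode PXR and CAR, had 45.7 and 38.1 FPKM on average in WT and 54.0 and 42.2 FPKM in *Esrra*-/-. Their log2 fold changes were 0.21 and 0.16 (limma adjusted p = 0.759 and 0.854).

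Markers of other cells were low or did not pass the test, apart from the Paneth cell list and 1 hepatocyte gene. All 7 crypt markers were negative, with a median of −0.67, and by limma 0 were called and 1 (*Ccnb1*) had an unadjusted p under 0.05, against 10.8% of all genes. *Lgr5* passed the filter only through WT (means of 1.38 and 0.699 FPKM). They summed to 149 to 279 FPKM in WT and 63.8 to 201 FPKM in *Esrra*-/-. Since several members are known from liver and fat, markers of hepatocytes and adipocytes were examined beside them. The 10 hepatocyte genes summed to 4.35 to 8.35 FPKM in WT and 4.13 to 5.55 FPKM in *Esrra*-/-, with *Fga* and *Fgb* listed at 0 in every library and *Alb* between 0.0585 and 0.225 FPKM, while *Ttr* was called lower (log2 fold change −1.12). *Ttr* had means of 1.78 FPKM in WT and 0.744 FPKM in *Esrra*-/-, so it passed the filter only through the group where it was higher, and its call is no support for a difference. Among 8 adipocyte genes, *Adipoq* and *Lep* were listed at 0 in every library, and *Cidec*, at 68.5 to 153 FPKM, gave nearly all of the sum. Of 8 pancreatic acinar genes, 5 were listed at 0 in every library, and the sum was 2.44 to 3.62 FPKM in WT and 3.53 to 3.56 FPKM in *Esrra*-/-.

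The goblet, enteroendocrine, tuft, immune and mesenchymal lists were examined too, with lists for proximal and distal small intestine. Among their tested genes, 0 were called by limma and 0 had an unadjusted p under 0.05. The shares over all genes tested were 1.35% called higher, 3.28% called lower and 10.8% with an unadjusted p under 0.05. All 5 goblet, 5 enteroendocrine and 5 immune genes were tested, but 3 of 4 tuft, 5 of 7 proximal, 4 of 6 distal and 1 of 6 mesenchymal genes (*Vim*). *Acta2*, a mesenchymal gene too low to be tested, had 0.0327 to 0.116 FPKM in WT and 0.117 to 1.04 FPKM in *Esrra*-/-, so the genotypes were barely apart. They overlapped for *Col1a1*, *Col1a2*, *Col3a1*, *Dcn* and *Vim*. *Zg16* of the goblet list and *Cyp8b1* of the proximal list, the latter too low to be tested, were also apart with *Esrra*-/- above. Of all genes tested, 8.45% were apart in this direction. *Fabp6* of the distal and *Slc40a1* of the proximal list passed the filter only through WT. The immune list summed to 278 to 1383 FPKM in WT and 704 to 2063 FPKM in *Esrra*-/-, and the mesenchymal list to 2.36 to 4.28 FPKM and 2.43 to 6.87 FPKM. The distal list summed to 519 to 724 FPKM and 519 to 913 FPKM, and the proximal list to 167 to 206 FPKM and 160.3 to 269 FPKM, in WT and *Esrra*-/- respectively. For all 4 of these lists the genotypes overlapped.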

How the data were processed

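RNA libraries from 3 WT and 3 *Esrra*-/- mice were quantified by the authors with kallisto on mm9, and the deposited unit is FPKM per gene (22611 genes). The submitters' processing notes list FastQC 0.11.3, kallisto 2.1.0 and DESeq2 2.2.1, and the annotation is not given in the sources used here. A deposited table of the authors' own comparison (mean counts, fold changes, p-values) was not used. Here log2(FPKM + 0.1) of genes with a mean FPKM above 1 was fitted in limma 3.58.1 (R 4.3.3) with a mean-variance trend, no covariate and Benjamini-Hochberg adjustment over all genes tested. The fit was tested on simulated data. The filter used the mean over all 6 libraries, so a low gene could pass through 1 genotype alone. Calls needed an unadjusted p below 0.05 and a log2 difference larger than 0.58 in size. FPKM values do not give depth: from ratios of low values, libraries were scaled by factors of 0.829 to 1.03 relative to WT replicate 1. Coding sequences and words came from GENCODE M1 on NCBIM37. The members and lists were chosen with earlier results of these data known. Genes named were the members, *Esrra*, the other carboxylesterases, called genes of the lists, neighbours of the Ces2 and Ces3 cluster (of the Ces1 cluster, *Nudt21* alone is reported here), and the neighbours of *Ces3a* in rank and in correlation. *Nr1i2*, *Nr1i3*, *Nr1h3*, *Pnpla6*, *Abhd5*, *Pnlip*, *Nudt21* and the marker genes singled out were named after their values were seen. Alternatives were other pseudocounts, filters and scalings, no trend, the Y-linked covariate, a replicate block, each library left out, and 2 chosen after seeing the data: scaling by summed FPKM, and near-identical pairs summed.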

Additional observations from a re-analysis of the deposited data

How the results depend on the processing

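*Ces3a* was between 2.41 (pseudocount 1) and 3.25 on the log2 scale under all 17 alternatives, and the summed pair with *Ces3b* gave 2.92. The count of members called higher, 2, became 1 with a pseudocount of 1, 0 with an adjusted p under 0.05 as the rule, and 1 to 3 with 1 library left out. Wherever it was 1, the call was that of *Ces3a*, selected on this contrast, so 0 of the other 8 members were called. It was 3 under quantile normalization and scaling by summed FPKM, with *Ces2c* added. The count called lower, 0, became 0 to 1 with 1 library left out (*Ces1e*). The sign of *Ces1f* turned under quantile normalization (−0.0143), and leaving out 1 library gave −0.154 to 0.180. Over all genes, 143 higher and 348 lower became 277 and 528 without a filter, 2 and 2 with the adjusted p, and 270 and 134 with scaling by summed FPKM. With 1 library left out there were 143 to 214 higher and 252 to 533 lower, the last without *Esrra*-/- replicate 2. Causes were not tested. Limits: 3 mice per group, unknown depth, and near-copies that share reads.

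The replicate numbers were not taken as pairs, as the labels state no pairing. Deviations of same-numbered libraries had correlations of 0.0116, 0.263 and 0.376, and those of differently numbered ones ran from −0.366 to 0.182. The highest, 0.263 and 0.376, were thus between same-numbered libraries, and what these share was not tested. With the replicate block 2 members were called higher and 0 lower, and 192 genes higher and 441 lower. The unadjusted limma p of *Ces2c* went from 0.0993 to 0.01 under the block, at a log2 fold change of 0.48, too small for a call. That of *Ces1g* went from 0.096 to 0.144. *Ces2g* was called under the block (0.59), with the Y-linked covariate (0.59), without *Esrra*-/- replicate 2 (0.89) and with scaling by summed FPKM (0.71), and was 0.19 to 0.89 with 1 library left out. *Ces2d-ps* was called without WT replicate 3 (1.96), was 0.34 without WT replicate 2, and was 0.51 with a pseudocount of 1. *Ces2h*, which passed the filter only through *Esrra*-/-, was called under the block, quantile normalization, no trend and without WT replicate 1 (0.77 to 0.99). It was not called without a filter (0.77), and had no value without *Esrra*-/- replicate 1, when its mean fell to the filter or below. These calls of *Ces2h* are no support for a difference, since it passed the filter only through the group where it was higher. Those of *Ces2g* and *Ces2d-ps* were made under some alternatives but not in the main fit.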
